A study of Mus musculus with 4 samples.

Results

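The 80 genes described here encode the proteins of the cytosolic ribosome, 48 of the large subunit (Rpl) and 32 of the small subunit (Rps). They were chosen by gene name, as every gene on the array whose symbol is that of a numbered Rpl or Rps protein, a stalk protein (Rplp0, Rplp1 or Rplp2) or Rpsa, and the kinases named Rps6k were left out. They make up 80 of 28090 gene names, 138 of 41174 probes and 147 of 43379 spots on the array. No measured value entered the choice. Prostate RNA of male mice was hybridised to Agilent mouse arrays in a single colour, Cy3, with 1 array for each of 4 groups. C57BL/6 mice and TRAMP mice, 8 weeks of age in every group, were given by gavage either olive oil or 600 mg/kg of γ-TmT, a mixture of tocopherols (forms of vitamin E) rich in γ-tocopherol and called TmT below. All 4 groups ate AIN-76A diet for the week beforehand, were fasted overnight, and had the prostate taken and frozen 12 hours after the dose. TRAMP mice carry the early region of SV40 (its T antigens), driven in prostate epithelium by a promoter fragment of rat probasin. The labels do not name the strain that carries the transgene, so the difference between the lines and the effect of the transgene cannot be told apart. Each group had 3 mice, and the labels do not say whether its array held RNA of 1 mouse or of a pool. The differences below between pairs of arrays are therefore unreplicated and carry no p-value. The arrays are bulk measurements, in which fewer cells of a type and less RNA per cell cannot be told apart.

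Ribosomal proteins assemble with ribosomal RNA into the subunits that translate every cytosolic mRNA, and they are among the most strongly expressed genes of any dividing or secreting cell. In mammals most of their mRNAs begin with a C followed by a tract of pyrimidines, the 5′ terminal oligopyrimidine (TOP) motif, through which mTOR signalling and the protein Larp1 regulate their translation, largely without a change in mRNA level. Production of ribosomes is stimulated by Myc and mTOR and is commonly raised in tumours, and unassembled Rpl5 and Rpl11 bind Mdm2 and thereby stabilise p53.

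The start regions of these genes are shown first, because runs of pyrimidines there were more frequent than among all promoters, as given below. Each line gives 30 bases in the direction of transcription, 20 before and 10 after the start that RefSeq annotates on GRCm38.p6, for 3 genes that were higher and 3 that were lower on the array of TRAMP mice after TmT than after oil. Capitals mark the letters CTTTC. The lines are examples, and their share with CTTTC does not stand for the family. The same windows of Rps4x, Rps16, Rpl41, Rpl11, Rps28, Rpl34, Rpl24, Rpl13a, Rpl27a and Rpl10a, not shown, held no CTTTC.
Rps27 at chr3:90213639-90213668, minus strand: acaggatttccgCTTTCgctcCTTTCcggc
Rps12 at chr10:23787200-23787229, minus strand: ttaaataccgtcatgcggccaccgccggcc
Rplp2 at chr7:141447631-141447660, plus strand: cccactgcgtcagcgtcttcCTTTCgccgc
Rplp0 at chr5:115559447-115559476, plus strand: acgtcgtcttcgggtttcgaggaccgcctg
Rps15a at chr7:118116138-118116167, minus strand: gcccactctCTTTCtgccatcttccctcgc
Rps18 at chr17:33955656-33955685, minus strand: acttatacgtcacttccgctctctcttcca

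RefSeq promoters were at hand for 60 of the 80 genes (72 promoters). In the 100 bases around the start, CTTTC was present on the sense strand in 36 of the 72 (50%) against 12.8% of all 32851 promoters, and on the opposite strand in 11.1% against 12.1%. CTCTTT was present on the sense strand in 30.6% against 3.99% of all promoters, and on either strand in 31.9% against 7.66%. ACTTCC, the core of many Ets-family sites, was present on either strand in 33.3% against 10.7%, whereas TATAAA was present in 5.56% against 4.94%. CTTTC and CTCTTT share letters and can overlap. The annotated start decides where the window lies, and a match is a run of letters, not a shown site of regulation. Sense CTTTC was present in 13 of 25 genes that were above 0 for TmT minus oil in TRAMP mice and in 17 of 33 that were below 0. Sense CTCTTT was present in 4 of those 25 and in 14 of those 33.

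Values are log2 of the processed signal minus log2 of the array's 75th percentile, and each gene was represented by the probe with the highest mean over the 4 arrays. A gene was taken as measured in a comparison where the scanner software marked it well above background on both arrays. Of the 80 genes, 77 were well above background on all 4 arrays and 1, Rpl39l, on none, while 60.1% of all gene names were above background on all 4. Rpl3 and Rpl28 had no value on the TRAMP oil array because their spots there carried an outlier mark. The depth of the arrays differed: between 63.9% (TRAMP TmT) and 74.1% (C57BL/6 oil) of spots were well above background, and the 75th percentile of the signal lay between 71.3 and 161 in the same arrays. The median SD between spots of a probe printed 10 times was 0.109 to 0.177 log2 units within an array, and the scanner software's error of a difference was 0.20 for most ribosomal protein genes. That error covers the spots and not the mice. All 14 luminal and secretory prostate genes that were listed as markers of the tissue were above background on every array.

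After oil, ribosomal protein genes had slightly lower signal in TRAMP than in C57BL/6 prostate. The median difference over 77 measured genes was -0.22, against -0.07 over all 18900 measured genes, and 58 of the 77 were below 0 (75.3%, against 54.5% of all genes). At least 1.5-fold different were 12 of the 77 (background 36.7% of all genes), 8 of them lower (background 19.8%) and 4 higher (background 16.9%). At the 2-fold level 1 was lower (background 7.84%) and 0 were higher (background 7.74%), so 1 was different (background 15.6%). The genes lay close together, with an interquartile range of 0.42 against 0.85 for all genes. This was not particular to them among the related lists described further on. The range was 0.37 for the mitochondrial ribosome and 0.41 for oxidative phosphorylation. It was 0.39 for translation factors with TOP mRNAs and 0.38 for other initiation and elongation factors. Ribosome biogenesis genes had 0.75, and the list of mTOR, S6 kinases and Myc had 0.81. The small subunit had a median of -0.31 over 32 genes and the large subunit -0.19 over 45. The median was -0.04 under quantile normalization and under cyclic loess, which also turned the counts to 6 higher and 3 lower (background 20.1% and 16.3%) and to 5 higher and 3 lower (background 19.6% and 16.5%). With each array centred on its median the counts were 4 and 4 (background 18.9% and 17.4%).

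Rpl4, a core protein of the large subunit that lines the exit tunnel, stood at 1.80 on the C57BL/6 oil array, 1.69 on C57BL/6 TmT, 1.06 on TRAMP oil and 0.66 on TRAMP TmT (mm9 chr9:64022737-64022796), with differences of -0.73 ± 0.20 (scanner error) after oil and -1.03 ± 0.20 after TmT. Both TRAMP arrays were below both C57BL/6 arrays. Rpl3l, the striated-muscle paralog of Rpl3, stood at -1.50, -1.47, -2.41 and -2.32 in the same order, and the listed skeletal muscle genes had a median of -1.0 after oil and -0.40 after TmT, with 9 and 5 of 11 at least 1.5-fold lower. Their part in the Rpl3l difference was not tested. The probes with the 3 highest differences after oil, of Rpl23a (0.95), Rps18 (0.88) and Rpl27a (0.88), were all printed beyond row 480 of the slide, as described further on.

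**Figure D1:**
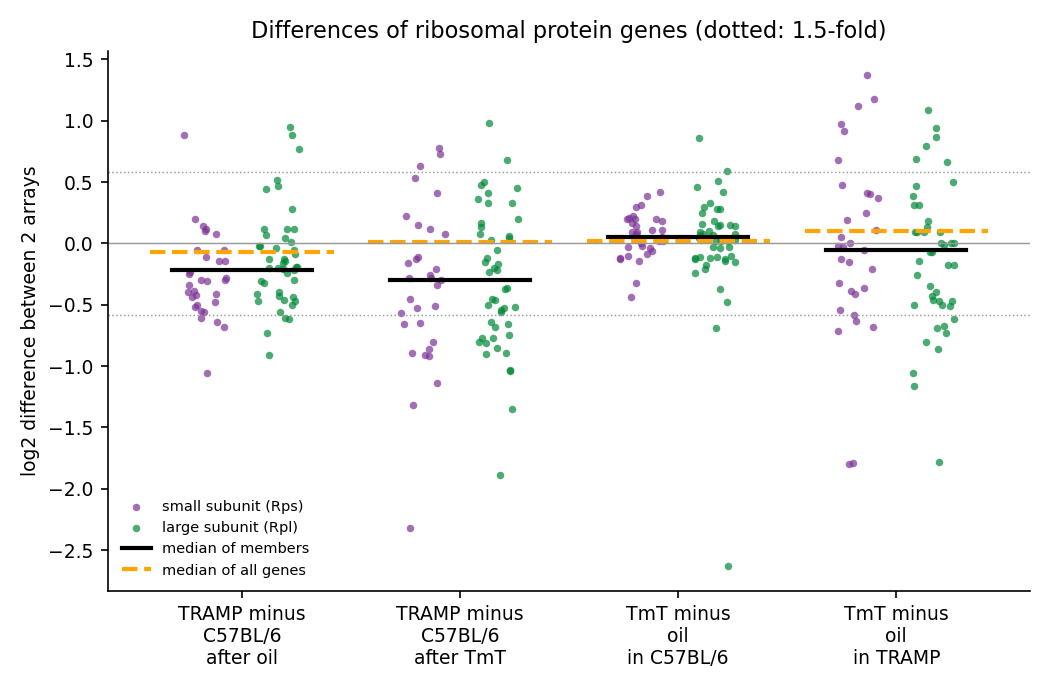
Log2 difference of each measured ribosomal protein gene (points; purple small subunit, green large subunit) in the 4 comparisons of single arrays, with the median of these genes (black bar) and of all measured genes (orange dashed bar); dotted lines mark 1.5-fold. The points lie close together for TmT in C57BL/6 (interquartile range 0.28) and spread out in both comparisons that use the TRAMP TmT array (0.81 and 0.79).

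After TmT, the same genes were lower in TRAMP than in C57BL/6 by a median of -0.30 over 79 measured genes, while the median of all 17292 genes was 0.01. At least 1.5-fold different were 30 of the 79 (background 36.9%), 25 of them lower (background 17.3%) and 5 higher (background 19.6%). The counts were 3 higher and 33 lower with median centring (background 16.2% and 21.2%), 8 and 20 with cyclic loess (background 19.6% and 17.2%) and 1 and 38 with normexp background correction (background 7.11% and 10.7%). At the 2-fold level 7 were different (background 14.5%), 7 lower and 0 higher (background 6.11% and 8.41%). The large subunit had a median of -0.36 over 47 genes and the small subunit -0.29. The interquartile range was 0.81, close to that of all genes (0.87). This comparison and the one after oil use different pairs of arrays: 40 of 77 genes were below 0 in both, 6 were above 0 in both and 31 differed in sign, the last being 36.8% over all genes.

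The 7 genes at least 2-fold lower were Rps15a (-2.32), Rpl3 (-1.89), Rplp0 (-1.35), Rps26 (-1.32), Rps18 (-1.14), Rpl32 (-1.04) and Rpl4 (-1.03). The highest differences were those of Rpl28 (0.98), Rps4x (0.78) and Rps12 (0.73). The probes of Rps15a, Rpl3, Rps18 and Rpl28 were printed beyond row 480 of the slide. Rps26, which contacts the mRNA upstream of the start codon, stood at 4.76 on C57BL/6 oil, 4.90 on C57BL/6 TmT, 4.21 on TRAMP oil and 3.58 on TRAMP TmT (mm9 chr10:128062363-128063147). The TRAMP arrays were below both C57BL/6 arrays, by -0.55 ± 0.20 after oil and -1.32 ± 0.20 after TmT. Rpl13a, which is also a translational repressor in interferon-treated myeloid cells, stood at 4.65, 4.17, 4.08 and 3.28 (mm9 chr7:52382460-52382635), so each TmT array was below its oil array and each TRAMP array below its C57BL/6 array. Its only probe lay at row 19, among the outer slide rows. The 9 ribosomal protein probes at rows 1 to 20 had medians of -0.89 for the lines after TmT and -0.51 for TmT in TRAMP. The probes of all genes at these rows had medians of -0.09 and -0.13. One of the 9 is the probe of Rplp0, which was printed in 10 spots and is placed here by the row of its first. Rpl32, which is widely used as a reference gene in PCR, stood at 7.63, 8.22, 7.33 and 7.18 and differed between the lines by -0.31 after oil and -1.04 after TmT. The C57BL/6 TmT array was the highest of the 4.

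TmT in C57BL/6 prostate left the ribosomal protein genes close to their level after oil. The median of TmT minus oil was 0.05 over 79 genes, against 0.02 over all 18719. Of the 79, 49 were above and 30 below 0 (38.0% below, against 48.0% of all genes). At least 1.5-fold different were 4 genes (background 20.8%), 2 higher (background 11.0%) and 2 lower (background 9.8%). At the 2-fold level 1 was different (background 5.78%), 1 lower (background 2.63%) and 0 higher (background 3.15%). The interquartile range was 0.28, against 0.58 for all genes. The median ranged from -0.09 under normexp to 0.11 with median centring. The 4 genes at 1.5-fold were Rpl6 (0.86) and Rpl32 (0.59) among the higher and Rpl34 (-0.69) and Rpl28 (-2.63) among the lower, and Rpl37, at 0.51, was the next highest. The probes of Rpl28 and Rpl6 were both printed beyond row 480 of the slide. Rpl28 stood at 4.45 after oil and 1.83 after TmT in C57BL/6 and at 2.80 on the TRAMP TmT array, and it had a single probe.

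TmT in TRAMP prostate gave a median of -0.05 over 77 genes, while all 17428 measured genes had a median of 0.10. Of the 77, 33 were above and 44 below 0 (57.1% below, against 44.0% of all genes). Around that median the genes lay farther apart than in C57BL/6: the interquartile range was 0.79, against 0.85 for all genes. At least 1.5-fold different were 26 (background 35.8%), 12 of them higher (background 21.8%) and 14 lower (background 14.0%). At the 2-fold level 9 were different (background 13.5%), 4 higher and 5 lower (background 8.67% and 4.86%). Quantile normalization gave 9 higher and 20 lower (background 18.8% and 16.7%). Cyclic loess and median centring each gave 10 and 19 (background 19.7% and 15.5%, and 17.9% and 17.6%), and normexp gave 3 and 32 (background 11.9% and 10.7%). The subunits had like medians, -0.02 for the small and -0.07 for the large. The comparison shares no array with that of TmT in C57BL/6; 33 of 77 genes differed in sign between them, and 44.3% of all genes did.

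**Figure D2:**
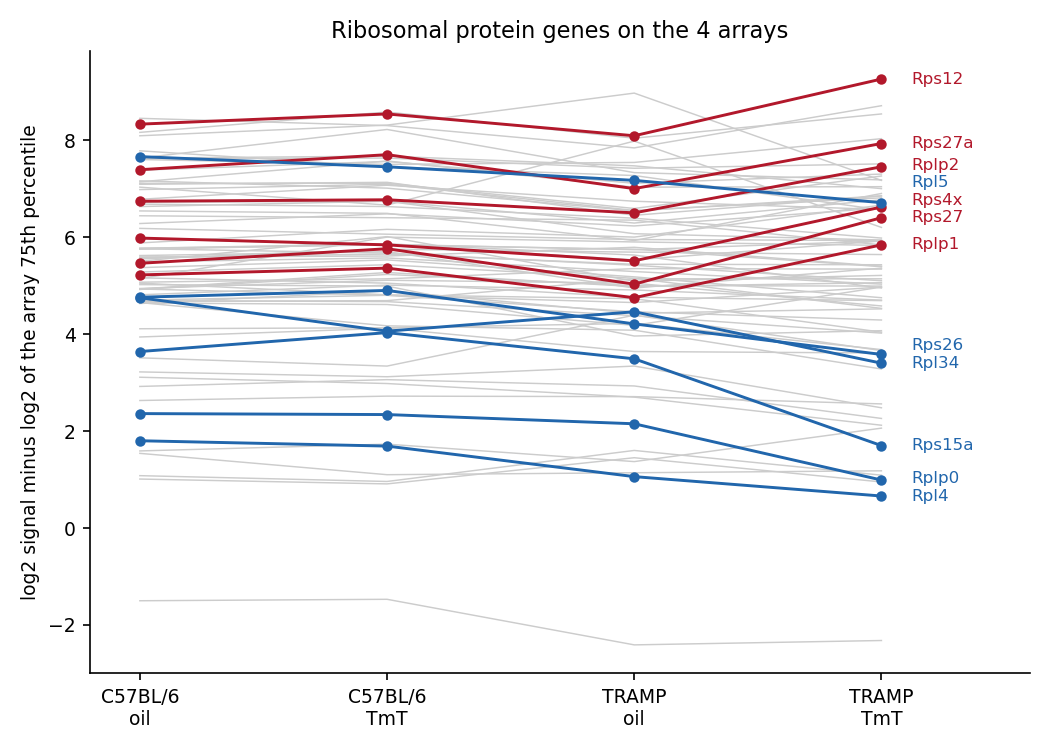
Level of each ribosomal protein gene (log2 signal minus log2 of the array's 75th percentile) on the 4 arrays, 1 array per group; red lines are named genes that were higher after TmT in TRAMP mice, blue lines other named genes, and grey lines the remaining genes above background on all 4 arrays. Lines run nearly level between the C57BL/6 arrays and fan out towards the TRAMP TmT array, where Rps12 reached 9.26 and Rplp0 0.99; levels of different genes come from different probes and are not comparable with each other.

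The stalk proteins recruit elongation factors to the ribosome, with Rplp0 as the base that anchors dimers of Rplp1 and Rplp2. Rplp0, which is also a common reference gene, was printed 10 times per array and is the most precisely measured of the 80. It averaged 2.36 ± 0.16 (SD over 10 spots) on C57BL/6 oil, 2.34 ± 0.12 (9 spots) on C57BL/6 TmT, 2.15 ± 0.19 on TRAMP oil and 0.99 ± 0.15 on TRAMP TmT (mm9 chr5:116010930-116010989). Its lowest spot on TRAMP oil, 1.92, was above its highest on TRAMP TmT, 1.22, so the spots of the TRAMP TmT array overlapped with none of the others. TmT minus oil in TRAMP was -1.16 ± 0.06 (scanner error), 2.24-fold lower. Rplp1 went the other way, with 5.22 on C57BL/6 oil, 5.36 on C57BL/6 TmT, 4.75 on TRAMP oil and 5.84 on TRAMP TmT (mm9 chr9:61761101-61761160), a difference of 1.09 ± 0.20 in TRAMP. Rplp2 did likewise, at 6.74, 6.77, 6.50 and 7.45 (mm9 chr7:148637180-148637239), a difference of 0.94 ± 0.20. The base of the stalk and its acidic partners therefore had opposite signs on the same pair of arrays, each beyond the spot error. In C57BL/6 the differences of the 3 genes were -0.03, 0.14 and 0.03. Each gene had 1 probe, starting at base 64 in Rplp0, 397 in Rplp1 and 379 in Rplp2. RefSeq-named probes in the first 200 bases were mostly below 0 for TmT in TRAMP, as given further on. The part of probe position in the stalk genes was not tested.

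The highest differences after TmT in TRAMP were in small-subunit genes. Rps27 (metallopanstimulin), a zinc-finger protein of the small subunit, stood at 5.46 on C57BL/6 oil, 5.76 on C57BL/6 TmT, 5.03 on TRAMP oil and 6.40 on TRAMP TmT (mm9 chr3:90016591-90016650), 2.59-fold higher after TmT in TRAMP. The TRAMP oil array was the lowest of the 4 and the TRAMP TmT array the highest. Rps12 had the same order of arrays, with 8.33, 8.54, 8.09 and 9.26 (mm9 chr10:23505016-23505075, 2.26-fold). Rps4x, the X-linked copy that has a Y-linked partner in primates, stood at 5.98, 5.84, 5.51 and 6.62 (mm9 chrX:99380289-99380348, 2.17-fold). Rps27a, made as a fusion with ubiquitin and so a source of free ubiquitin, stood at 7.39, 7.70, 7.0 and 7.93. In each of these genes the TRAMP oil array was lowest and the TRAMP TmT array highest, so the sign of the difference between the lines turned from oil to TmT: from -0.44 to 0.63 in Rps27, -0.25 to 0.73 in Rps12, -0.48 to 0.78 in Rps4x and -0.39 to 0.22 in Rps27a. For Rps12 the difference after TmT was -0.02 when its probes were averaged. Its dimmer probe, named by a cDNA clone, was at -0.76 there.

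The lowest differences after TmT in TRAMP were in Rps18, Rps15a and Rpl23a. Rps18, which contacts the large subunit at the head of the small one, stood at 8.09 on C57BL/6 oil, 8.31 on C57BL/6 TmT, 8.97 on TRAMP oil and 7.17 on TRAMP TmT (mm9 chr17:34088984-34089043), 3.47-fold lower after TmT in TRAMP. Rps15a stood at 3.64, 4.03, 3.49 and 1.70 (mm9 chr7:125258356-125258659), 3.45-fold lower. Rpl23a, which sits at the exit of the peptide tunnel, stood at 7.03, 6.66, 7.98 and 6.20 (mm9 chr11:77994457-77994672), 3.44-fold lower. All of these probes lay beyond row 480 of the slide. A second RefSeq probe of Rps18, at row 472, was also lower, by -0.94, whereas that of Rpl23a, at row 389, differed by 0.14. On the signal before the scanner software's multiplicative detrending, Rpl23a differed by -0.31. After these and Rplp0 came Rpl34 (row 464), with 4.75, 4.06, 4.46 and 3.40 (mm9 chr3:130432171-130432227), which gave TmT minus oil of -0.69 in C57BL/6 and -1.06 in TRAMP. A second RefSeq probe of Rpl34, at row 235, differed by 0.03 in C57BL/6 and -0.57 in TRAMP, so the difference in C57BL/6 rests on 1 of its probes.

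Rpl5 and Rpl11, which carry the 5S ribosomal RNA as a complex and bind Mdm2 together, did not run in parallel. Rpl5 stood at 7.66 on C57BL/6 oil, 7.45 on C57BL/6 TmT, 7.17 on TRAMP oil and 6.71 on TRAMP TmT (mm9 chr5:108332860-108333767), lower after TmT in both lines and lower in TRAMP under both treatments. Rpl11 stood at 4.64, 4.61, 4.18 and 4.97 (mm9 chr4:135605885-135606207), lower in TRAMP after oil by -0.46 and higher after TmT by 0.36. That turn of sign depended on the probe and the setting. A second probe of Rpl11, named by a cDNA clone, was at 0.53 after oil and 1.37 after TmT. The difference after oil was 0.03 as a mean over probes, and that after TmT was 0.06 under normexp. Rpl23 and Rpl26, which also bind Mdm2 or the p53 mRNA, differed in TRAMP by 0.47 and 0.39 after TmT and in C57BL/6 by 0.02 and -0.13. The values in TRAMP depended on the probe and the setting: a second probe of Rpl23, at row 7, was at -1.38, and under normexp Rpl23 was at -0.19 and Rpl26 at -0.34. Of 12 measured genes of the p53 and Mdm2 axis, 2 were at least 1.5-fold higher (background 21.8%) and 0 lower (background 14.0%) after TmT in TRAMP, with a median of 0.04. Trp53 itself differed by 0.22 and Mdm2 by -0.54 there.

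Further members have known roles in signalling, disease or development. Rps6, the substrate of the S6 kinases, stood at 5.59, 5.61, 5.79 and 5.40 in the order C57BL/6 oil, C57BL/6 TmT, TRAMP oil and TRAMP TmT, with TmT minus oil in TRAMP at -0.39 ± 0.20. The probe that gave these Rps6 values lay at row 3, among the outer slide rows. Rps19, the gene most often mutated in Diamond-Blackfan anaemia, stood at 2.63, 2.72, 2.71 and 2.56. Rps25, which supports initiation at internal ribosome entry sites, was lower in TRAMP by -0.34 after oil and -0.57 after TmT. A second RefSeq probe of Rps25 was at -0.08 and 0.15 in the same order. Rpl24, disrupted in the Belly spot and tail mouse, differed between the lines by 0.12 and -0.64. Rpl38, needed for translation of a set of Hox mRNAs in the embryo, was lower in TRAMP after oil by -0.62, with -0.15 after TmT. Rps14 had differences of -0.50 and -0.89 between the lines, and its probe lay at row 482. Rpsa, which doubles as a laminin receptor, stood at 1.54, 1.10, 1.14 and 1.18. A second Rpsa probe, beyond row 480, stood at 0.70, -0.53, 1.3 and -1.22, so the probes of this gene differed in TRAMP by 0.05 and -2.53 after TmT.

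Paralogs were measured beside their parent genes where they had probes. Rps27l, a p53 target and paralog of Rps27, stood at 3.11, 2.98, 2.70 and 2.12, so it was lower after TmT in TRAMP (-0.58) where Rps27 was higher (1.37). Rpl22 and its paralog Rpl22l1 differed by -0.07 each there. Rpl7 differed by -0.69 and Rpl7l1 by -1.28, and Rpl36a by 0.50 and Rpl36al by -0.52. Rpl39, the parent of the testis paralog Rpl39l, stood at 4.70, 4.80, 4.65 and 4.97. Rpl3, the parent of Rpl3l, stood at 5.43 on C57BL/6 oil, 5.89 on C57BL/6 TmT and 4.00 on TRAMP TmT, with its probe at row 530. Rpl10 stood at 5.28, 5.43, 5.15 and 4.53. Ribosomal protein genes have many processed pseudogenes and near-identical copies, so a probe may also bind transcripts of a copy. Among 113 RefSeq-named probes, 112 lay on the chromosome of their gene, and that of Rpl12 lay on chromosome 10 (mm9 chr10:29418592-29418651) although the gene is on chromosome 2.

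Probes of 1 transcript did not all give the same difference, which could be followed in 40 genes that had several measured probes for TmT in TRAMP. The range between probes of a gene had a median of 0.54, the sign differed between probes in 17 genes, and 11 genes had a range over 1. In C57BL/6 the median range was 0.32 and 0 of 40 genes had a range over 1. In 16 pairs of probes at least 60 bases apart on the same RefSeq transcript, away from the slide's outer rows, the downstream probe gave the higher value of TmT minus oil in TRAMP in 11, with a median gap of 0.47. For TRAMP minus C57BL/6 after TmT it was higher in 13 of 16 (81.2%), with a median gap of 0.31. Over 3145 such pairs of all genes the downstream probe was higher in 51.0% and 43.5%, with median gaps of 0.02 and -0.12. For TmT in C57BL/6 it was higher in 11 of the 16 (gap 0.10), against 59.6% over all genes (gap 0.11), and for the lines after oil in 12 of the 16 (gap 0.16), against 48.6% (gap -0.03).

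The probes of 3 of these pairs are shown, as examples, by their first 30 bases, with the base of the transcript at which each starts. Rps3 lines the mRNA entry channel, Rps2 lies beside it, and Rps25 was described above.
Rps3 from base 191, mm9 chr7:106630863-106631137: ctggagttgaagtccgagttacaccaacca
Rps3 from base 804, mm9 chr7:106626406-106626419: agtgcctacagcataacagggtcttggcga
Rps2 from base 337, mm9 chr17:24857612-24857671: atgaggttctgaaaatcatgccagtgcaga
Rps2 from base 869, mm9 chr17:24858789-24858848: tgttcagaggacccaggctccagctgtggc
Rps25 from base 217, mm9 chr9:44216846-44216905: taaggaggttccgaactataagcttattac
Rps25 from base 441, mm9 chr9:44218247-44218306: ttggaaaaataaaactttattgaatcaaat

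For TmT minus oil in TRAMP the upstream and downstream probes gave -0.56 and 0.19 in Rps3, -0.79 and 0.00 in Rps2, and -0.32 and 0.43 in Rps25. Rpl7a, another protein of the large subunit, gave -0.50 from base 196 and 0.09 from base 772. The order was the opposite in Rpl29 (-0.00 and -0.82) and Rpl22 (-0.07 and -0.53). A higher value at the downstream probe thus held for most of these pairs but not for all.

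**Figure D3:**
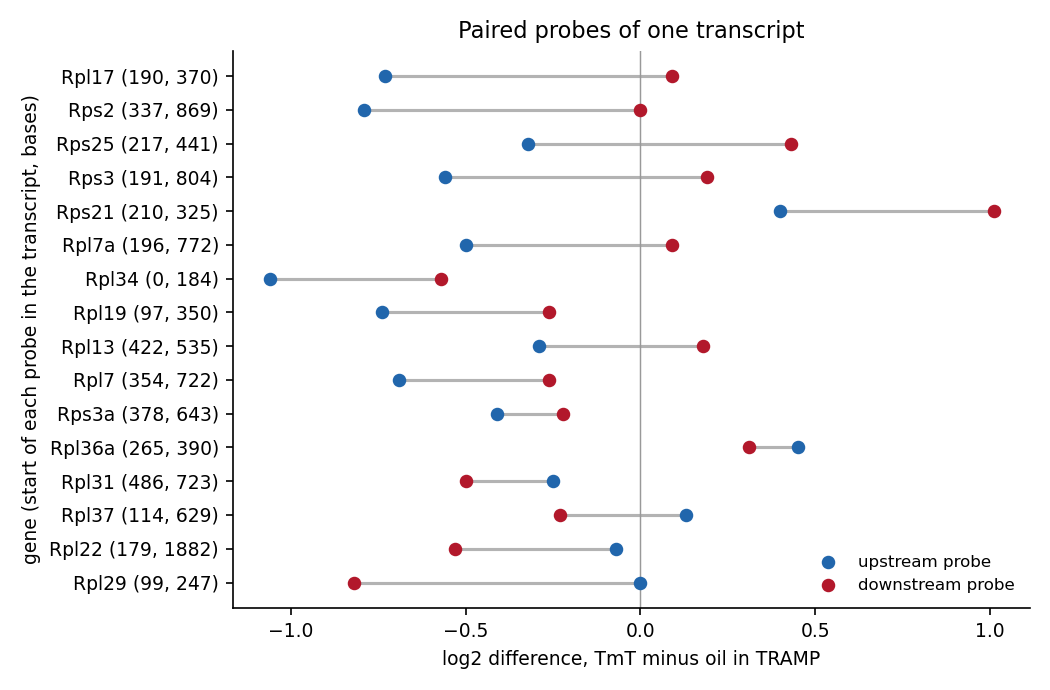
Log2 difference of TmT minus oil in TRAMP at the upstream (blue) and downstream (red) probe of 16 transcripts, with the start of each probe in bases in brackets. The red point lies to the right in 11 of the 16.

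Over all RefSeq-named probes of these genes away from the slide's outer rows, those starting in the first 200 bases of the transcript had a median of -0.40 for TmT minus oil in TRAMP, with 21 of 27 below 0. The 32 probes starting after base 200 and up to base 400 had a median of 0.04 with 16 below 0, and the 33 probes beyond base 400 had -0.00 with 17 below 0. For TRAMP minus C57BL/6 after TmT the medians were -0.54, -0.28 and -0.12. The rank correlation of probe start with the difference was 0.25 in the first and 0.31 in the second of these comparisons, over 92 probes of 69 genes that share the arrays, and it was 0.16 for TmT in C57BL/6 and 0.17 for the lines after oil (93 probes of 70 genes). In the same order of the 4 comparisons, the rank correlation of the difference with the probe's mean level was 0.58, 0.31, 0.20 and -0.37, and with its GC content -0.26, -0.42, -0.13 and -0.23. Labelling started from the poly(A) end, per the labels' protocols, and the part of RNA length, brightness and GC content in these differences was not tested.

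**Figure D4:**
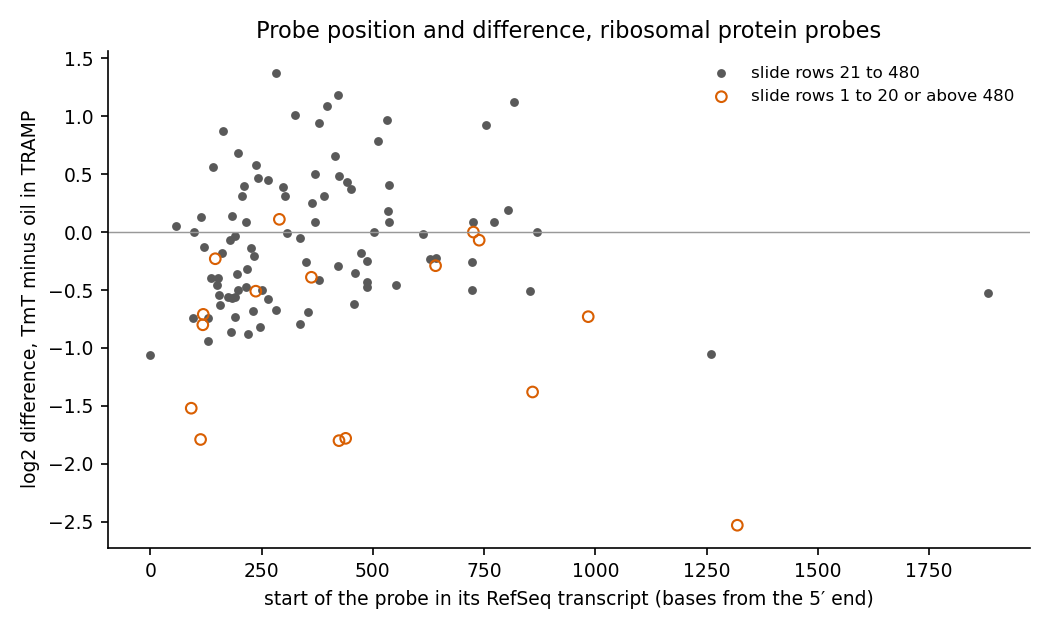
Log2 difference of TmT minus oil in TRAMP for each RefSeq-named probe of the ribosomal protein genes against its start in the transcript (bases from the 5′ end); filled points are probes at slide rows 21 to 480 and open orange points those at rows 1 to 20 or above 480. Of the filled points within the first 200 bases, 21 of 27 lie below 0, and the lowest values of the plot are open points.

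The place of a probe on the slide also moved with the difference. Among probes beyond row 480 of 532, the 10 measured ribosomal protein probes had a median of -1.13 for TmT minus oil in TRAMP, and the 1972 measured probes of all genes there -0.31, against -0.03 and 0.09 at rows 21 to 480. For the lines after oil the ribosomal protein probes beyond row 480 had a median of 0.57, against -0.17 at rows 21 to 480. The probes of all genes had 0.07 and -0.06 there. This region represents 8 of the 80 genes, namely Rpl3, Rpl6, Rpl23a, Rpl27a, Rpl28, Rps14, Rps15a and Rps18. The scanner software's multiplicative detrending had changed the values of every array but that of TRAMP TmT. On the signal before that step, Rpl23a differed by 0.13 between the lines after oil, in place of 0.95. For TmT minus oil in TRAMP it then differed by -0.31, in place of -1.78. The median of the ribosomal protein genes for TmT in TRAMP was -0.12 before that step and -0.05 after it. The part of detrending in the pattern over slide rows was not tested. Without probes at rows 1 to 20 or beyond row 480, 71 genes had a median of -0.01 for TmT minus oil in TRAMP. Of these, 12 were at least 1.5-fold higher and 9 lower (background 22.1% and 12.0%). After oil, 1 of 72 genes was then higher and 8 were lower (background 15.9% and 19.1%). Without those probes, Rpl23a differed by -0.68 between the lines after oil in place of 0.95, and Rps18 by -0.23 in place of 0.88, each from its next probe.

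Probes named by another cDNA accession than a RefSeq mRNA, 25 of the 138, gave different medians from the 113 RefSeq-named probes. For TRAMP minus C57BL/6 after TmT their median was 0.13 over 21 measured probes, against -0.45 over 110, and for TmT minus oil in TRAMP it was 0.28 over 22 against -0.22 over 108. Over all genes the same classes had medians of 0.20 and -0.02 after TmT. At least 1.5-fold higher in TRAMP after both treatments were 3 of 21 such probes of ribosomal protein genes (14.3%, against 14.0% of such probes of all genes) and 0 of 108 RefSeq-named ones (against 6.08%). One is a probe of Rps13 (mm9 chr7:123475109-123475172), at -1.47 on C57BL/6 oil, -0.84 on C57BL/6 TmT, -0.27 on TRAMP oil and 0.14 on TRAMP TmT, while the RefSeq-named probe of Rps13 differed between the lines by -0.05 and 0.12. The others are of Rps20 (mm9 chr4:3758777-3758836; 0.95 and 0.69) and Rps24 (mm9 chr14:25315989-25316048; 1.3 and 1.36). The exon, intron or untranslated region under these probes was not looked up, and they were singled out after their values were seen.

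The genes that build or drive the ribosome were taken as related lists. Their counts at 1.5-fold stand beside backgrounds of 16.9% higher and 19.8% lower for the lines after oil, 19.6% and 17.3% for the lines after TmT, and 21.8% and 14.0% for TmT in TRAMP. Of the ribosome biogenesis genes, 10 of 47 measured were at least 1.5-fold higher in TRAMP after oil and 6 lower, with a median of 0.23, where the ribosomal proteins had -0.22. Utp20, a protein of the small subunit processome, was highest at 1.01 and Utp18 lowest at -1.90. After TmT in TRAMP their median was -0.12, with 4 higher and 9 lower of 46, from Utp18 at 1.95 to the RNA polymerase I factor Ubtf at -1.43. Translation factors with TOP mRNAs had medians of -0.18 and -0.20 between the lines, near those of the ribosomal proteins, and 5 of 22 were at least 1.5-fold lower after TmT, led by Eif4a2 at -1.12. Other initiation and elongation factors had medians of -0.09 and -0.34, with 3 and 8 of 25 at least 1.5-fold lower; Eif5a, the hypusine-carrying elongation factor, was lowest in both at -1.40 and -1.39.

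Of 30 measured genes of mTOR signalling, the S6 kinases and Myc, 5 were at least 1.5-fold higher and 3 lower in TRAMP after oil (median 0.04), and 4 and 6 after TmT (median -0.13). Larp1, which binds TOP mRNAs, stood at 3.64 on C57BL/6 oil, 1.65 on TRAMP oil and 3.66 on TRAMP TmT, with no value on C57BL/6 TmT. Eif4ebp1, the translation repressor that mTOR inactivates, stood at 3.16 on C57BL/6 oil, 3.42 on C57BL/6 TmT, 2.80 on TRAMP oil and 1.62 on TRAMP TmT. Myc differed between the lines by 0.38 and 0.30. The mitochondrial ribosome had medians of -0.07 after oil and -0.21 after TmT between the lines, with 5 of 72 and 17 of 74 genes at least 1.5-fold lower. For TmT in TRAMP its interquartile range was 0.70, against 0.44 in C57BL/6. All measured genes were likewise farther apart on the TRAMP pair, with 0.85 against 0.58. Oxidative phosphorylation subunits had medians of -0.36 and -0.27 between the lines, and interquartile ranges of 0.89 for TmT in TRAMP and 0.39 in C57BL/6.

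**Figure D5:**
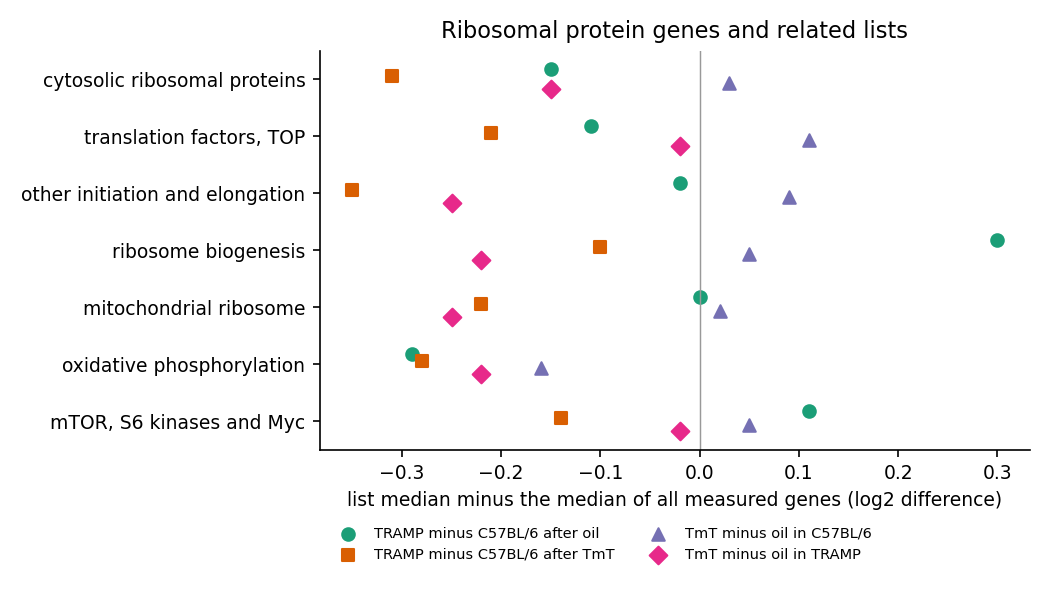
Median log2 difference of the ribosomal protein genes and of 6 related gene lists in the 4 comparisons (symbols), each minus the median of all measured genes. After oil the ribosomal proteins lie at -0.15 and ribosome biogenesis genes at 0.30; for TRAMP minus C57BL/6 after TmT all 7 lists lie below 0.

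Markers of cell types moved with the same arrays. Proliferation genes were at least 1.5-fold higher in TRAMP in 14 of 14 measured after oil and 11 of 11 after TmT (medians 2.65 and 2.15); 3 were not above background on C57BL/6 TmT. Their summed linear levels were 49.7, 42.8, 306 and 166 in the order C57BL/6 oil, C57BL/6 TmT, TRAMP oil and TRAMP TmT. Adipocyte genes were at least 1.5-fold higher in 12 of 13 after oil, with summed levels of 80.4, 59.2, 317 and 69.0 and Lep above background on no array. Luminal and secretory genes summed to 1580, 2000, 709 and 1260. For TmT minus oil in TRAMP the medians were -1.85 for adipocytes, 0.83 for fibroblasts, 0.77 for endothelium, 0.81 for basal epithelium, 0.62 for smooth muscle, 0.39 for skeletal muscle, 0.14 for leukocytes and 0.61 for lymphocytes. Fibroblast sums were 301, 298, 156 and 373. Seminal vesicle genes, 1 of which (Svs7) is also in the luminal list, had a median of 0.01 and sums of 1960, 2100, 1960 and 2220. Erythroid genes had a median of 0.17, and of 10 germ-cell and epididymal genes Odf1, Akap4, Lcn5 and Adam7 were above background on no array. The part of these cell types in the ribosomal protein values was not tested.

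Genotype and treatment were also fitted together over the 4 arrays, with limma's moderated test and Benjamini-Hochberg adjustment over 20023 genes (threshold 0.05). For a gene with 4 arrays the interaction of genotype and treatment is then its own measure of error, whereas Rpl3 and Rpl28, with 3, have none and take their error from the prior over all genes. None of the 79 ribosomal protein genes tested passed for genotype or treatment, and 0.0% of all genes did in either. At an unadjusted p under 0.05 there were 5 ribosomal protein genes for genotype, among 3007 of all genes (15.0%), and each was fitted lower in TRAMP, among them Rpl3, Rpl3l, Rpl4 and Rps26. The lowest adjusted p for genotype in the limma fit was 0.226, for Rpl3, which rests on 3 arrays and a probe beyond row 480. For treatment there were 2 at an unadjusted p under 0.05, Rpl28 and Rpl34, among 1244 of all genes (6.21%), and the lowest adjusted p in the limma fit was 0.781. With normexp background correction the same test called 7 ribosomal protein genes for genotype and 1 for treatment, among 1403 (7.01%) and 366 (1.83%) of all 20019 genes.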

How the data were processed

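Each array's deposited scanner file was used. Per the file headers, Agilent Feature Extraction 10.2.1.3 made the processed signal (background-subtracted and spatially detrended within each array, as a linear intensity) with probe positions on mm9. The value table the authors deposited held the same intensity values for all 45018 features, with medians of 30.2, 21.3, 25.3 and 13.8 in the order C57BL/6 oil, C57BL/6 TmT, TRAMP oil and TRAMP TmT; its scale is linear, it is not centred, and no direction applies to a single colour.

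Control spots and spots with an outlier mark (131, 207, 348 and 178) were left out, and no spot was saturated. Log2 intensity minus log2 of the array's 75th percentile was averaged over the spots of a probe, and the brightest probe stood for a gene name. No test between single arrays was possible; genes at least 1.5-fold different among those well above background on both arrays were counted. Limma 3.58.1 in R 4.3.3 fitted genotype and treatment over genes that 2 or more arrays showed well above background; it was tested on simulated data, where its estimates met the simulated sizes and the share of false calls was above the nominal one. Tables and figures were made with Python 3.11.15.

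The text names the 3 highest and 3 lowest genes of each comparison, every gene at least 2-fold different, paralogs and their parents, a fixed set of members with known roles, and the extremes of the related lists. Where several such lists were described, some extremes were left out, and other names were chosen after their values were seen. The genes, lists, tests and alternatives were chosen with earlier results of these data known. A result that the rule names is not reported here. Symbols are those of the array; 113 of 138 probe accessions matched the RefSeq table (GRCm38.p6), 111 with the same symbol. Alternatives were quantile, cyclic loess and median scaling, normexp (offset 50), the signal before multiplicative detrending, no background filter, the mean over probes, outlier spots kept, the deposited table and a 2-fold threshold. Leaving out or recentring slide rows was added after seeing the data. Under normexp, the local background of 16 spots (C57BL/6 TmT) and 9 spots (TRAMP TmT) above 10 times the array's median was set to that median, because the correction could not be fitted otherwise.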

Additional observations from a re-analysis of the deposited data

Results flagged for a closer look

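The median of TmT minus oil over these genes had opposite signs in the lines, 0.05 in C57BL/6 and -0.05 in TRAMP as reported. Both lay close to 0, and the medians of all genes were 0.02 and 0.10. Under normexp both medians of these genes were below 0 (-0.09 and -0.44). The difference was not tested.

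The difference between the lines turned sign from oil to TmT, by more than 2 spot errors on each side, in 5 of the named genes. Rplp1 went from -0.47 to 0.48, Rps27 from -0.44 to 0.63 and Rps4x from -0.48 to 0.78. In the other direction Rpl23a went from 0.95 to -0.46 and Rps18 from 0.88 to -1.14, both at probes beyond row 480 of the slide. With 1 array a group these turns were not tested.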

How the results depend on the processing

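The median difference of the ribosomal protein genes was below 0 for both differences between the lines and for TmT in TRAMP under every one of the 12 settings. For TmT minus oil in TRAMP it ran from -0.44 (normexp) to -0.01 (outer slide rows left out), and for the lines after TmT from -0.54 (normexp) to -0.19 (cyclic loess). Normexp moved the median of all genes to 0.15 for TmT in TRAMP, and leaving out the background filter moved it to 0.21, from 0.10. With a 2-fold threshold 1 gene was different after oil, 7 between the lines after TmT, 1 for TmT in C57BL/6 and 9 for TmT in TRAMP. The backgrounds were 15.6%, 14.5%, 5.78% and 13.5% in the same order. The count after oil at 1.5-fold was 12 as reported (background 36.7%). Under normexp it was 6, with 0 higher and 6 lower (background 8.06% and 9.31%). Before multiplicative detrending it was 5, with 2 higher and 3 lower (background 17.9% and 19.1%). For TmT in C57BL/6 the count was 4 as reported (background 20.8%). Without the outer slide rows it was 2, with 1 higher and 1 lower (background 9.91% and 9.26%). Normexp called 7 genes for genotype and 1 for treatment in the limma fit, against 0 and 0, among 7.01% and 1.83% of all genes.

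Of 1645 values of 40 named genes under the alternatives, 1387 stayed within the gene's scanner error of the reported one. The sign was opposite to the reported one in 107, and the reported difference was at least 1.5-fold in 9 of these. Without the outer slide rows Rpl23a was at -0.68 for the lines after oil and 0.14 for TmT in TRAMP, Rpl27a at 0.57 for TmT in TRAMP, and Rps18 at -0.23 for the lines after oil, since another probe then stands for each. Rps18 after oil was also at -0.19 under normexp, -0.13 before multiplicative detrending and -0.01 as a mean over probes. Rps12 was at -0.02 for the lines after TmT as a mean over probes, and Rps14 at 0.03 for TmT in TRAMP before detrending.

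No paired analysis was possible because each group has 1 array. Leaving out an array was not run as a test, since it leaves the additive model no residual degree of freedom. The number of arrays limits the precision, and Rpl39l, above background on no array, could not be compared.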
